A study of Homo sapiens with 18 samples.

Results

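XPC, DDB2, POLH and RRM2B, 4 genes of DNA repair and nucleotide supply that p53 is known to regulate, were taken by name from the table of normalized counts, which lists 3074 genes. All 4 were in the table and all 4 passed the filter on low values. The cells were SJSA-1, a human osteosarcoma line that carries extra copies of the gene for MDM2, the ubiquitin ligase that holds p53 down. The 18 libraries formed 6 groups of 3. Of these, 3 groups had neocarzinostatin (NCS, 1 µg/mL), a drug that breaks DNA, for 72 h. They were given MD-224 (NCS+MD-224), MI-1061 (NCS+MI-1061) or DMSO (NCS) for the last 24 h, when NCS was renewed. The other 3 groups had DMSO in place of NCS for the 72 h and the same additions for the last 24 h (MD-224, MI-1061 and DMSO). Both compounds were used at 1 µM. MI-1061 is an inhibitor that keeps MDM2 from binding p53, and MD-224 is a degrader that joins an inhibitor of this kind to a ligand of the cereblon ubiquitin ligase. All libraries came from 1 cell line, and the labels do not say whether replicates were separate cultures, so p-values measure the spread between these libraries.

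Nucleotide excision repair removes bulky lesions, such as those from ultraviolet light, by cutting out a stretch of the damaged strand and filling the gap. XPC, with its partners, finds distorted DNA and starts the pathway. DDB2, the smaller subunit of the UV-damaged DNA binding complex, finds ultraviolet lesions in chromatin and hands them to XPC. POLH encodes DNA polymerase eta, which copies past lesions that stop the replicative polymerases and is missing in the variant form of xeroderma pigmentosum. RRM2B (p53R2) is the p53-regulated small subunit of ribonucleotide reductase, which supplies deoxynucleotides for repair and for mitochondrial DNA outside S phase.

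XPC lies on chromosome 3 from 14145147 to 14178601, DDB2 on chromosome 11 from 47214454 to 47239217 and POLH on chromosome 6 from 43576185 to 43620523 (RefSeq, GRCh38.p14). All 3 are protein-coding. Promoter windows of 300 bases, from 250 before to 50 after a start site, were taken from RefSeq for XPC, DDB2 and POLH. They are shown because these genes rose with MI-1061, without and after NCS. RRM2B rose with MI-1061 as well, and its window is not reported here. DDB2 had 2 windows, with start sites 520 bases apart. The windows were searched on both strands for the p53 response element, read as 2 copies of the p53 half-site consensus (10 bases each). These were at most 13 bases apart with at most 3 mismatches in all, and the C and G in the core of each half-site had to match. Capitals mark the half-sites of such an element.
XPC promoter, chr3:14178552-14178851, minus strand: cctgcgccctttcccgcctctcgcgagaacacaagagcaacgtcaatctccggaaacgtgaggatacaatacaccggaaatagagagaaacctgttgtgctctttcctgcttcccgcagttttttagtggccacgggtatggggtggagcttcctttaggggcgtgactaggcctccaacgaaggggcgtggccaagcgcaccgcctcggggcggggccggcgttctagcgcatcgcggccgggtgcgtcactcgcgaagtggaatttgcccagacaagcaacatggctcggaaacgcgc
DDB2 promoter, first start site, chr11:47214204-47214503, plus strand: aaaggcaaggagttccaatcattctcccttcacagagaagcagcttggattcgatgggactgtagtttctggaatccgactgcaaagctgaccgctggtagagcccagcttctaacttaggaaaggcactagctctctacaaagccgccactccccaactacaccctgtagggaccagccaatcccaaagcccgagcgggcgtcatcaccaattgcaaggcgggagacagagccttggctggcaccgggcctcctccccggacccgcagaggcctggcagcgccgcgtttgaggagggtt
DDB2 promoter, second start site, chr11:47214724-47215023, plus strand: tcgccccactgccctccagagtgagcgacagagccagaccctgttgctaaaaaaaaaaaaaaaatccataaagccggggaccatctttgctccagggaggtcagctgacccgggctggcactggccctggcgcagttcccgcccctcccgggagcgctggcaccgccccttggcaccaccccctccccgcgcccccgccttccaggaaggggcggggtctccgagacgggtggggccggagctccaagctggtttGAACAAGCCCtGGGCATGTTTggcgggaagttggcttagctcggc
POLH promoter, chr6:43575935-43576234, plus strand: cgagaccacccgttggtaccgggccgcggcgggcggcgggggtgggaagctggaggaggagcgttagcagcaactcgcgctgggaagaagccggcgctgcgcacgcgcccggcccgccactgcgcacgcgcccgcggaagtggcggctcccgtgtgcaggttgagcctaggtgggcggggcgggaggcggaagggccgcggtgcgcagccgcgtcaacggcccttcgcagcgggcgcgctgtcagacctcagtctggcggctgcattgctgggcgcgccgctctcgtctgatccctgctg
The element was found in the window of the second DDB2 start site, from base 6 of the transcript (chr11:47214979-47214999), with 0 mismatches and 1 base between the half-sites. The other 3 windows held none under these limits. Of all 35116 RefSeq windows 12.8% held an element of up to 3 mismatches and 0.402% one of at most 1 mismatch. A match describes the sequence and is not evidence of binding in these cells.

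The listing limits what can be compared. Every gene in the table had a mean at least 1.75-fold higher in NCS+MI-1061 than in DMSO libraries, so that comparison is given only as a description. The ratio of these means was 4.67 for XPC, 5.73 for DDB2, 7.22 for POLH and 10.9 for RRM2B, against a median of 2.997 over listed genes. Comparisons that use the NCS+MI-1061 or the DMSO libraries depend on the listing. Those of NCS+MD-224 with NCS, NCS+MD-224 with MD-224 and MD-224 with MI-1061 use neither. They are not free of the listing, since their calls and shares are over listed genes only. Limma called 465 genes higher and 0 lower in the first of these and 1198 and 18 in the second. In the third it called 381 higher and 1531 lower. The rule of the listing is not given in the sources used here, so whether other groups entered it cannot be told. The listed genes summed to between 4594460 and 17252589 normalized counts per library. In the 13 libraries whose reads could be recovered, each of the 4 genes had at least 1137 reads in every library, the fewest being those of POLH in DMSO replicate 2. Of 10 osteoblast and osteosarcoma markers the table held COL1A2, SPARC and SPP1, while RUNX2, SP7 and ALPL were not analysed here. COL1A2, SPARC and SPP1 summed to 166696 to 196765 normalized counts in NCS+MD-224, 165704 to 190865 in NCS+MI-1061 and 143576 to 170940 in NCS libraries. The sums were 107846 to 151184 in MD-224, 81994.6 to 136594.5 in MI-1061 and 70302 to 87985 in DMSO libraries. Of 5 haematopoietic markers it held ITGAM, CD68 and LAPTM5. Their summed normalized counts were 3418 to 4506 in NCS+MD-224, 4852 to 4962 in NCS+MI-1061, 2302 to 2498 in NCS, 783.1 to 1085 in MD-224, 2412 to 3052 in MI-1061 and 439.9 to 1111 in DMSO libraries. Their part in the results was not tested. In bulk RNA, a change in the number of cells of a type and a change in RNA per cell cannot be told apart.

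XPC had 8139, 8807 and 6031 normalized counts in NCS+MD-224, 12416, 13550 and 12796 in NCS+MI-1061, 3715, 4428 and 4037 in NCS, 5705, 7200 and 6154 in MD-224, 9672, 15353 and 13921 in MI-1061 and 2442, 2986 and 2880 in DMSO libraries (replicates 1 to 3). The 2 inhibitor groups were the highest and overlapped each other. Those with the degrader overlapped each other below them, and NCS lay below the degrader groups and above DMSO without overlap. DDB2, the partner of XPC in lesion recognition, had 5280, 4496 and 3505 in NCS+MD-224, 9737, 9420 and 9361 in NCS+MI-1061, 1865, 1995 and 1811 in NCS, 2637, 3315 and 2840 in MD-224, 7820, 10196 and 10193 in MI-1061 and 1606, 1633 and 1739 in DMSO libraries. The 2 inhibitor groups again overlapped. For DDB2, unlike XPC, all 3 NCS+MD-224 libraries lay above all 3 MD-224 libraries.

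POLH had 4301, 3136 and 2679 normalized counts in NCS+MD-224, 12593, 11899 and 11432 in NCS+MI-1061, 1596, 1337 and 1334 in NCS, 2155, 1771 and 1514 in MD-224, 4740, 6218 and 5930 in MI-1061 and 2132, 1093 and 1754 in DMSO libraries. For this polymerase the 3 lowest groups, MD-224, NCS and DMSO, overlapped, and the 2 inhibitor groups were separate from each other. RRM2B had 14599, 13014 and 10171 in NCS+MD-224, 31057, 31489 and 31240 in NCS+MI-1061, 4384, 4186 and 4265 in NCS, 8040, 6342 and 6483 in MD-224, 17373, 24224 and 21303 in MI-1061 and 2730, 2811 and 3075 in DMSO libraries. Its 6 groups had no overlap between neighbours, in the order NCS+MI-1061, MI-1061, NCS+MD-224, MD-224, NCS and DMSO. The plot of normalized counts by library shows these orders.

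**Figure D1:**
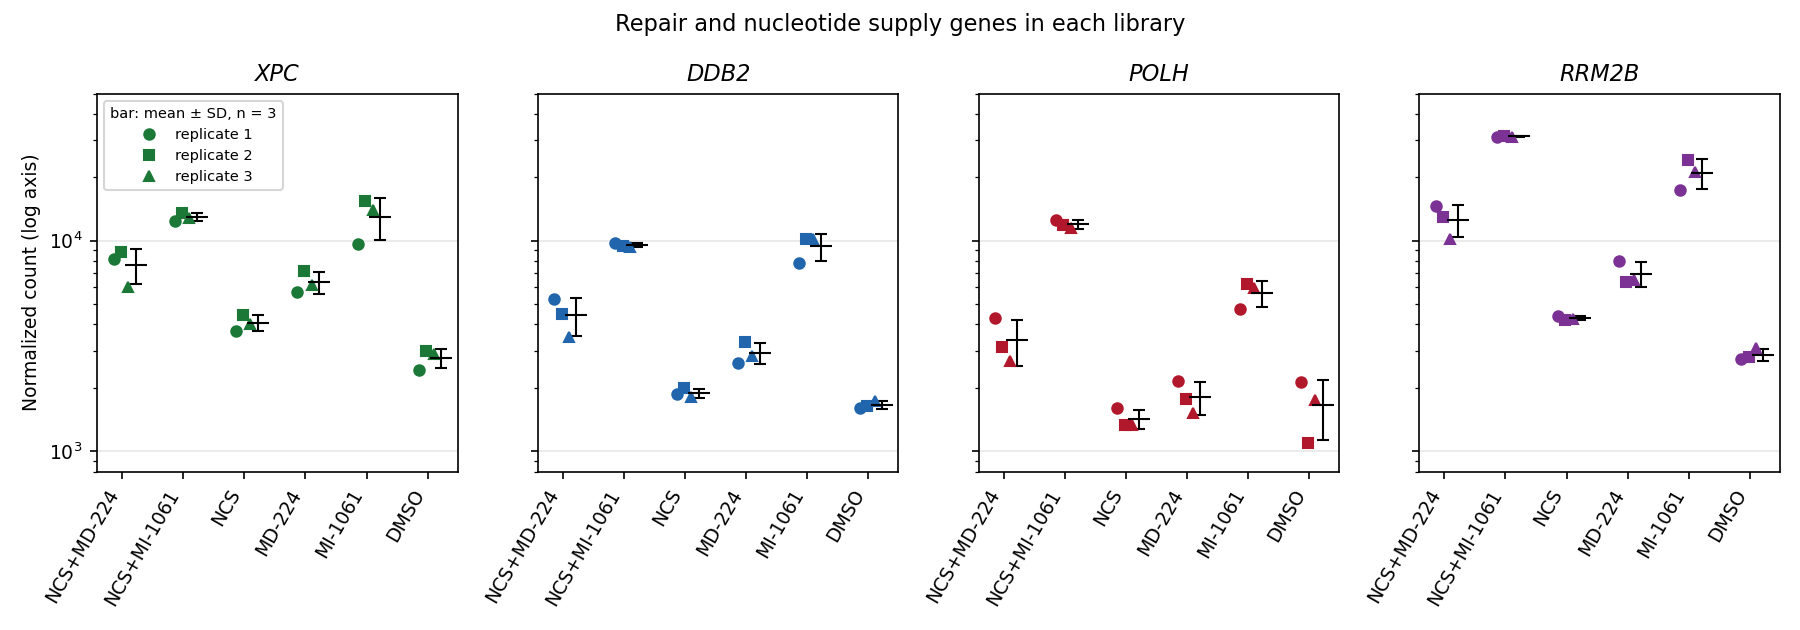
Normalized counts of XPC, DDB2, POLH and RRM2B (log axis) in the 18 libraries, by group; symbols are the replicates and bars the mean ± SD (n = 3). NCS+MI-1061 lies above MI-1061 without overlap for POLH (11432 to 12593 against 4740 to 6218) and RRM2B, and overlaps it for XPC and DDB2.

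Within groups, some libraries were low or high for several of the genes. MI-1061 replicate 1 was the lowest of its group for all 4 genes, as it was for 48.5% of listed genes. Replicate 2 of that group was the highest for all 4, as it was for 46.7% of listed genes. NCS+MD-224 replicate 3 was the lowest of its group for all 4, as it was for 42.3% of listed genes. The coefficient of variation within groups was 0.695% to 4.88% in NCS+MI-1061, against 13.9% to 22.8% in MI-1061 and 31.7% for POLH in DMSO libraries. The widest of these was that of POLH in DMSO, where replicate 1 had 2132 and replicate 2 had 1093. Values without single libraries are given beside calls that change.

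MI-1061 without NCS was set against DMSO to show the response to the inhibitor where no NCS was present. All 4 genes rose, RRM2B the most. The background for this is that limma called 67.6% of 3073 tested genes higher in that comparison. RRM2B averaged 20967 ± 3438 in MI-1061 and 2872 ± 180 in DMSO libraries (SD, n = 3 each) and rose 7.24-fold (log2 2.86, SE 0.14; limma adjusted p = 4.26e-11). The change of DDB2 was 5.62-fold (log2 2.49, SE 0.14) with an adjusted p of 2.03e-10 from limma, and that of XPC 4.62-fold (log2 2.21, SE 0.17) with 3.91e-09. The lesion-bypass polymerase POLH rose 3.5-fold (log2 1.81, SE 0.21; limma adjusted p = 9.38e-07), the least of the 4. The median change over all tested genes was 1.99-fold, and 71.1% to 87.4% of tested genes had a smaller log2 change than these 4. The groups did not overlap for any of the 4 genes, a pattern found in 65.2% of tested genes. All 4 calls held with TMM scaling over the listed genes, which moved the median log2 of tested genes by −0.98 and called 942 higher and 925 lower, against 2076 and 137. Count tests on recovered reads gave log2 changes between 1.76 and 2.87.

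MD-224 without NCS was set against the same DMSO libraries, so the comparisons with MI-1061 and MD-224 share them. RRM2B, XPC and DDB2 rose and POLH did not pass, where limma called 39.9% of tested genes higher. RRM2B averaged 6955 ± 942 in MD-224 and 2872 ± 180 in DMSO libraries and rose 2.41-fold (log2 1.27, SE 0.14; limma adjusted p = 3.23e-06). XPC was 2.29-fold higher (log2 1.20, SE 0.17; limma adjusted p = 3.48e-05). DDB2 was 1.76-fold higher (log2 0.81, SE 0.14; limma adjusted p = 0.000249). For these 3 genes the groups did not overlap, as in 42.3% of tested genes. POLH averaged 1813 ± 323 in MD-224 and 1659 ± 526 in DMSO libraries, a 1.12-fold difference with a 95% interval of 0.821 to 1.53 (limma adjusted p = 0.557). The POLH groups overlapped, and its log2 change of 0.17 was −0.11 without DMSO replicate 2. The DDB2 call was lost with TMM scaling over the listed genes (log2 0.32, adjusted p = 0.0678), which moved the median log2 of all tested genes by −0.49 and called 327 higher and 357 lower, against 1225 and 86.

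After NCS, MI-1061 was set against NCS alone. POLH now had the largest fold of the 4. It averaged 11975 ± 584 in NCS+MI-1061 and 1422 ± 151 in NCS libraries and rose 8.44-fold (log2 3.08, SE 0.21; limma adjusted p = 1.78e-09). RRM2B rose 7.31-fold (log2 2.87, SE 0.14; limma adjusted p = 5.06e-11), DDB2 5.03-fold (log2 2.33, SE 0.14; limma adjusted p = 3.94e-10) and XPC 3.19-fold (log2 1.67, SE 0.17; limma adjusted p = 1.06e-07). The 4 calls stand against 70.5% of tested genes called higher and a median of 1.96-fold. The groups overlapped for none of the 4, as in 78.7% of tested genes. The calls held with TMM scaling, under which 733 genes were higher and 593 lower, against 2168 and 23. Of all tested genes 94.7% had a smaller log2 change than POLH, against 71.1% in the comparison without NCS.

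MD-224 after NCS was set against the same NCS libraries, in a comparison that uses neither NCS+MI-1061 nor DMSO libraries. All 4 genes rose, where limma called 15.1% of tested genes higher, and the groups did not overlap. The all-3-above-all-3 pattern itself was found in 40.8% of tested genes. RRM2B averaged 12595 ± 2244 in NCS+MD-224 and 4278 ± 99.8 in NCS libraries and rose 2.91-fold (log2 1.54, SE 0.14; limma adjusted p = 1.87e-06). The change was 2.33-fold for POLH (log2 1.22, SE 0.21; limma adjusted p = 0.000861), 2.31-fold for DDB2 (log2 1.21, SE 0.14; limma adjusted p = 2.89e-05) and 1.87-fold for XPC (log2 0.90, SE 0.17; limma adjusted p = 0.00124). The median of all tested genes was 1.23-fold. Of them 97.7% had a smaller log2 change than RRM2B, 95.2% a smaller one than POLH, 94.8% than DDB2 and 89.4% than XPC. These 4 calls held with TMM scaling (116 genes higher and 6 lower, against 465 and 0) and without each single library.

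The degrader and the inhibitor were compared at the same dose and time. Without NCS all 4 genes were lower with MD-224 than with MI-1061, where limma called 49.8% of tested genes lower. The 3 libraries of MD-224 lay below those of MI-1061 for each gene, as in 49.2% of tested genes. DDB2 averaged 2931 ± 348 in MD-224 and 9403 ± 1371 in MI-1061 libraries, 0.313-fold (log2 −1.68, SE 0.14; limma adjusted p = 5.81e-08). POLH was at 0.321-fold (log2 −1.64, SE 0.21; limma adjusted p = 5.42e-06) and RRM2B at 0.333-fold (log2 −1.59, SE 0.14; limma adjusted p = 8.01e-08). XPC, the damage sensor, differed least, at 0.496-fold (log2 −1.01, SE 0.17; limma adjusted p = 5.47e-05). The median of all tested genes was 0.671-fold. This comparison uses neither NCS+MI-1061 nor DMSO libraries. The 4 calls held with TMM scaling (847 genes higher and 941 lower, against 381 and 1531).

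After NCS all 4 genes were again lower with MD-224, where limma called 54.7% of tested genes lower, and again without overlap, as in 67.7% of tested genes. POLH averaged 3372 ± 836 in NCS+MD-224 and 11975 ± 584 in NCS+MI-1061 libraries, 0.276-fold (log2 −1.86, SE 0.21; limma adjusted p = 2.13e-06). RRM2B was at 0.399-fold (log2 −1.33, SE 0.14; limma adjusted p = 7.81e-07), DDB2 at 0.459-fold (log2 −1.12, SE 0.14; limma adjusted p = 5.02e-06) and XPC at 0.586-fold (log2 −0.77, SE 0.17; limma adjusted p = 0.000799). The median of all tested genes was 0.629-fold, and only 8.72% of them had a lower log2 change than POLH. For XPC the call was lost with TMM scaling (log2 −0.11, adjusted p = 0.632), under which 357 genes were higher and 550 lower, against 23 and 1680. It was also lost when replicate 3 was left out of every group (adjusted p = 0.0569).

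NCS alone was set against DMSO to show what 72 h of the DNA-breaking drug did without a compound. XPC and RRM2B rose and DDB2 and POLH did not pass, where limma called 54% of tested genes higher. XPC averaged 4060 ± 357 in NCS and 2769 ± 288 in DMSO libraries and rose 1.47-fold (log2 0.55, SE 0.17; limma adjusted p = 0.0101). RRM2B averaged 4278 ± 99.8 in NCS and 2872 ± 180 in DMSO libraries and rose 1.49-fold (log2 0.58, SE 0.14; limma adjusted p = 0.00234). DDB2 was at 1.14-fold, with a 95% interval of 0.927 to 1.4 (limma adjusted p = 0.264), although its 3 NCS libraries lay above the 3 DMSO libraries, as in 58.7% of tested genes. POLH was at 0.887-fold, with an interval of 0.649 to 1.21 (limma adjusted p = 0.498). The median of all tested genes was 1.58-fold, above each of the 4. With TMM scaling, which moved that median by −0.60 on the log2 scale, XPC and RRM2B were at log2 −0.06 and −0.04, and DDB2 and POLH were called lower at −0.43 and −0.79. It called 456 genes higher and 467 lower, against 1659 and 40. The XPC call was also lost without replicate 3 of every group (adjusted p = 0.0753).

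With MI-1061 present, POLH and RRM2B were higher in NCS+MI-1061 than in MI-1061 libraries, and XPC and DDB2 did not pass, where limma called 55.9% of tested genes higher. POLH averaged 11975 ± 584 in NCS+MI-1061 and 5629 ± 784 in MI-1061 libraries, 2.14-fold (log2 1.10, SE 0.21; limma adjusted p = 0.00024). RRM2B averaged 31262 ± 217 in NCS+MI-1061 and 20967 ± 3438 in MI-1061 libraries, 1.51-fold (log2 0.59, SE 0.14; limma adjusted p = 0.00115). XPC was at 1.01-fold (95% interval 0.796 to 1.29; limma adjusted p = 0.924) and DDB2 at 1.02-fold (0.829 to 1.25; limma adjusted p = 0.876), and both overlapped between the groups. For POLH and RRM2B the groups were apart, as in 60.2% of tested genes. The median over all tested genes was 1.63-fold, below POLH and above the other 3. With TMM scaling, a shift of −0.61 in the median, the log2 of XPC was −0.60 and that of DDB2 −0.59, both called lower, RRM2B lost its call at −0.03, and POLH kept its call. TMM scaling called 930 genes higher and 729 lower, against 1717 and 309. Without MI-1061 replicate 1 the log2 of XPC was −0.18 and that of DDB2 −0.10.

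With MD-224 present, NCS raised POLH, RRM2B and DDB2, where limma called 39% of tested genes higher. This comparison, too, uses neither NCS+MI-1061 nor DMSO libraries. POLH averaged 3372 ± 836 in NCS+MD-224 and 1813 ± 323 in MD-224 libraries and rose 1.84-fold (log2 0.88, SE 0.21; limma adjusted p = 0.00388). RRM2B was 1.8-fold higher (log2 0.85, SE 0.14; limma adjusted p = 0.000176). DDB2 was 1.5-fold higher (log2 0.58, SE 0.14; limma adjusted p = 0.00393). XPC was at 1.2-fold, with a 95% interval of 0.939 to 1.52 (limma adjusted p = 0.222), and its groups overlapped. Those of the other 3 genes did not, as in 48.5% of tested genes. The median over all tested genes was 1.36-fold. With TMM scaling, a shift of −0.44, POLH and DDB2 lost their calls (log2 0.43 and 0.13; adjusted p = 0.124 and 0.477), and 428 genes were higher and 223 lower, against 1198 and 18. DDB2 was at log2 0.37 (adjusted p = 0.0735) without replicate 1 of every group. POLH was at log2 0.91 (adjusted p = 0.0644) without replicate 3 of every group.

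The interaction asks whether a compound's change after NCS differed from its change without NCS. With all libraries and the deposited scaling it passed for POLH with both compounds, and did not pass for the other 3 genes. For MI-1061 the log2 change of POLH was 3.08 after NCS and 1.81 without NCS, a difference of 1.27 (SE 0.30; limma adjusted p = 0.00281), where 23.5% of tested genes were called with a positive interaction. For MD-224 it was 1.22 after NCS and 0.17 without NCS, a difference of 1.06 (SE 0.30; limma adjusted p = 0.0349), where 4.07% were called. RRM2B had interactions of 0.01 with MI-1061 (95% interval −0.40 to 0.42) and 0.27 with MD-224 (−0.14 to 0.68). DDB2 had −0.16 (−0.58 to 0.26) and 0.39 (−0.03 to 0.81). XPC had −0.53 with MI-1061 (−1.03 to −0.04; limma adjusted p = 0.0727) and −0.30 with MD-224 (−0.79 to 0.20). The XPC interaction with MI-1061 passed without MI-1061 replicate 1 (log2 −0.73, limma adjusted p = 0.00892), and when replicate 1 was dropped from every group (−0.68, limma adjusted p = 0.0408). The DDB2 interaction with MD-224 passed with TMM scaling (log2 0.56, limma adjusted p = 0.0465). Both POLH calls held with TMM scaling, which with MD-224 called 201 genes positive and 127 negative, against 125 and 221. Both interactions use the DMSO libraries, in which POLH varied most, and those with MI-1061 use the NCS+MI-1061 libraries as well. The POLH interaction with MI-1061 lost its call without replicate 3 of every group (adjusted p = 0.0594). That with MD-224 lost it when single libraries were left out, namely DMSO replicate 1 (log2 0.85, adjusted p = 0.0817) or 3 (0.99, 0.0647), NCS replicate 2 (1.01, 0.0826) or 3 (1.01, 0.0812), MD-224 replicate 2 (1.05, 0.0571) or 3 (0.93, 0.0909) and NCS+MD-224 replicate 1 (0.87, 0.0922). It was also lost when replicate 1 (0.88, 0.0887) or replicate 3 (0.97, 0.349) was dropped from every group, and when the fit held just the 4 groups of the contrast (adjusted p = 0.0733).

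**Figure D2:**
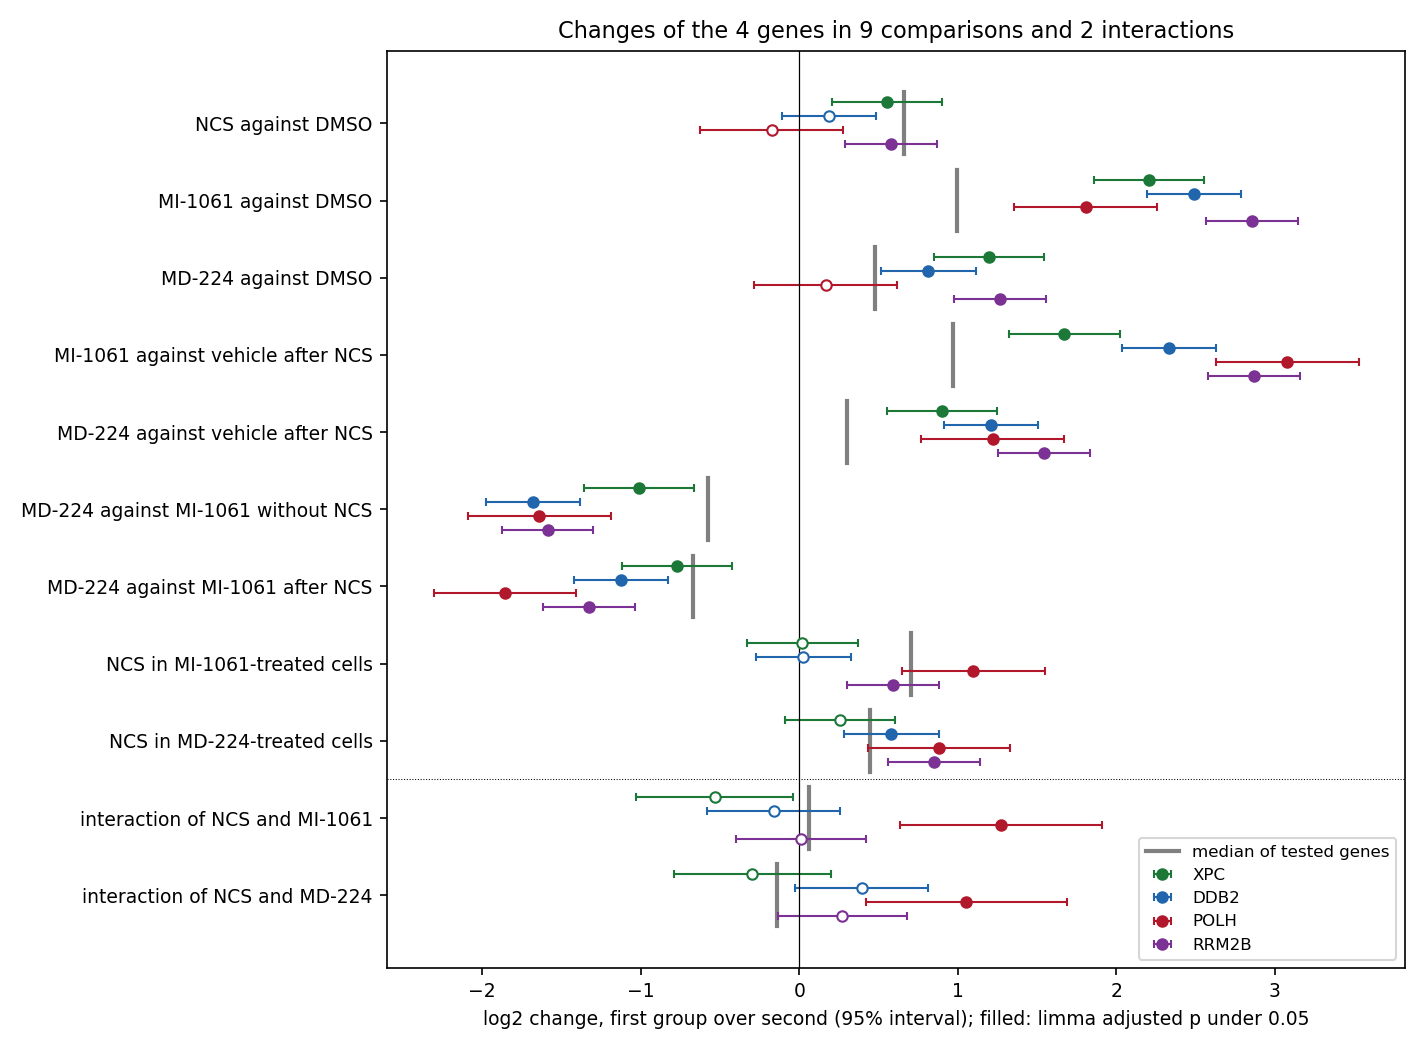
Log2 change of each gene in 9 comparisons and 2 interactions (first group over second), with 95% intervals; filled points passed limma at an adjusted p under 0.05 and grey bars mark the median of all tested genes. POLH is the only one of the 4 genes with filled points in the interactions, at 1.27 and 1.06.

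POLH is overlapped on the opposite strand by GTPBP2 (10345 bases) and by POLH-AS1 (3133 bases), and XPC by AC093495.1 (20832 bases), AC090004.1 (3106 bases) and LSM3 (426 bases), in GENCODE release 29. DDB2 is overlapped by AC018410.2 (1534 bases). Whether reads were counted by strand is not given in the sources used here, so reads of these partners cannot be told apart from those of the 3 genes. RRM2B, on chromosome 8 from 102204501 to 102238961 (RefSeq, GRCh38.p14), was overlapped by no other gene.

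Ratios of 2 of the genes within a library do not depend on how libraries were scaled, and show whether the genes changed unequally. Compound was set against vehicle over 12 libraries, with labels permuted within the NCS and the other libraries (exact permutation test, two-sided, 400 arrangements, 12 tests, smallest possible p = 0.005). With MI-1061 the RRM2B/XPC ratio averaged 2.42 ± 0.0903 in NCS+MI-1061 and 1.06 ± 0.118 in NCS libraries, and 1.64 ± 0.142 in MI-1061 and 1.04 ± 0.0909 in DMSO libraries (SD, n = 3 each). RRM2B therefore rose by log2 0.92 more than XPC (exact permutation p = 0.005, adjusted 0.012). RRM2B/DDB2 rose by log2 0.45 and DDB2/XPC by log2 0.47 with MI-1061 (exact permutation p = 0.005, adjusted 0.012 for both). So the response to the inhibitor was graded, with ribonucleotide reductase subunit above DDB2 and DDB2 above XPC. With MD-224 RRM2B/DDB2 rose by log2 0.39 (exact permutation p = 0.005, adjusted 0.012). RRM2B/XPC changed by 0.36 (adjusted 0.11) and DDB2/XPC by −0.04 (adjusted 0.851) without passing. This DDB2/XPC mean joins opposite signs, log2 0.31 after NCS and −0.38 without NCS, which were not tested separately.

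With MI-1061 the log2 changes of the ratios with POLH had opposite signs without and after NCS, which was not tested. POLH/XPC averaged 0.929 ± 0.0746 in NCS+MI-1061 and 0.354 ± 0.0671 in NCS libraries, but 0.44 ± 0.0443 in MI-1061 and 0.616 ± 0.254 in DMSO libraries. Its log2 change was 1.40 after NCS and −0.40 without NCS, so the mean of 0.50 did not pass (exact permutation p = 0.185, adjusted 0.247). POLH/DDB2 changed by 0.75 after NCS and −0.69 without NCS. POLH/RRM2B changed by 0.21 after NCS and −1.05 without NCS. With MD-224 POLH/RRM2B was lower in both settings, by log2 −0.32 after NCS and −1.10 without NCS (exact permutation p = 0.005, adjusted 0.012). The POLH ratios in DMSO spread widely, with POLH/RRM2B at 0.781, 0.389 and 0.57 in replicates 1 to 3. POLH/XPC in DMSO was at 0.873, 0.366 and 0.609, and overlapped the MI-1061 libraries (0.405 to 0.49).

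**Figure D3:**
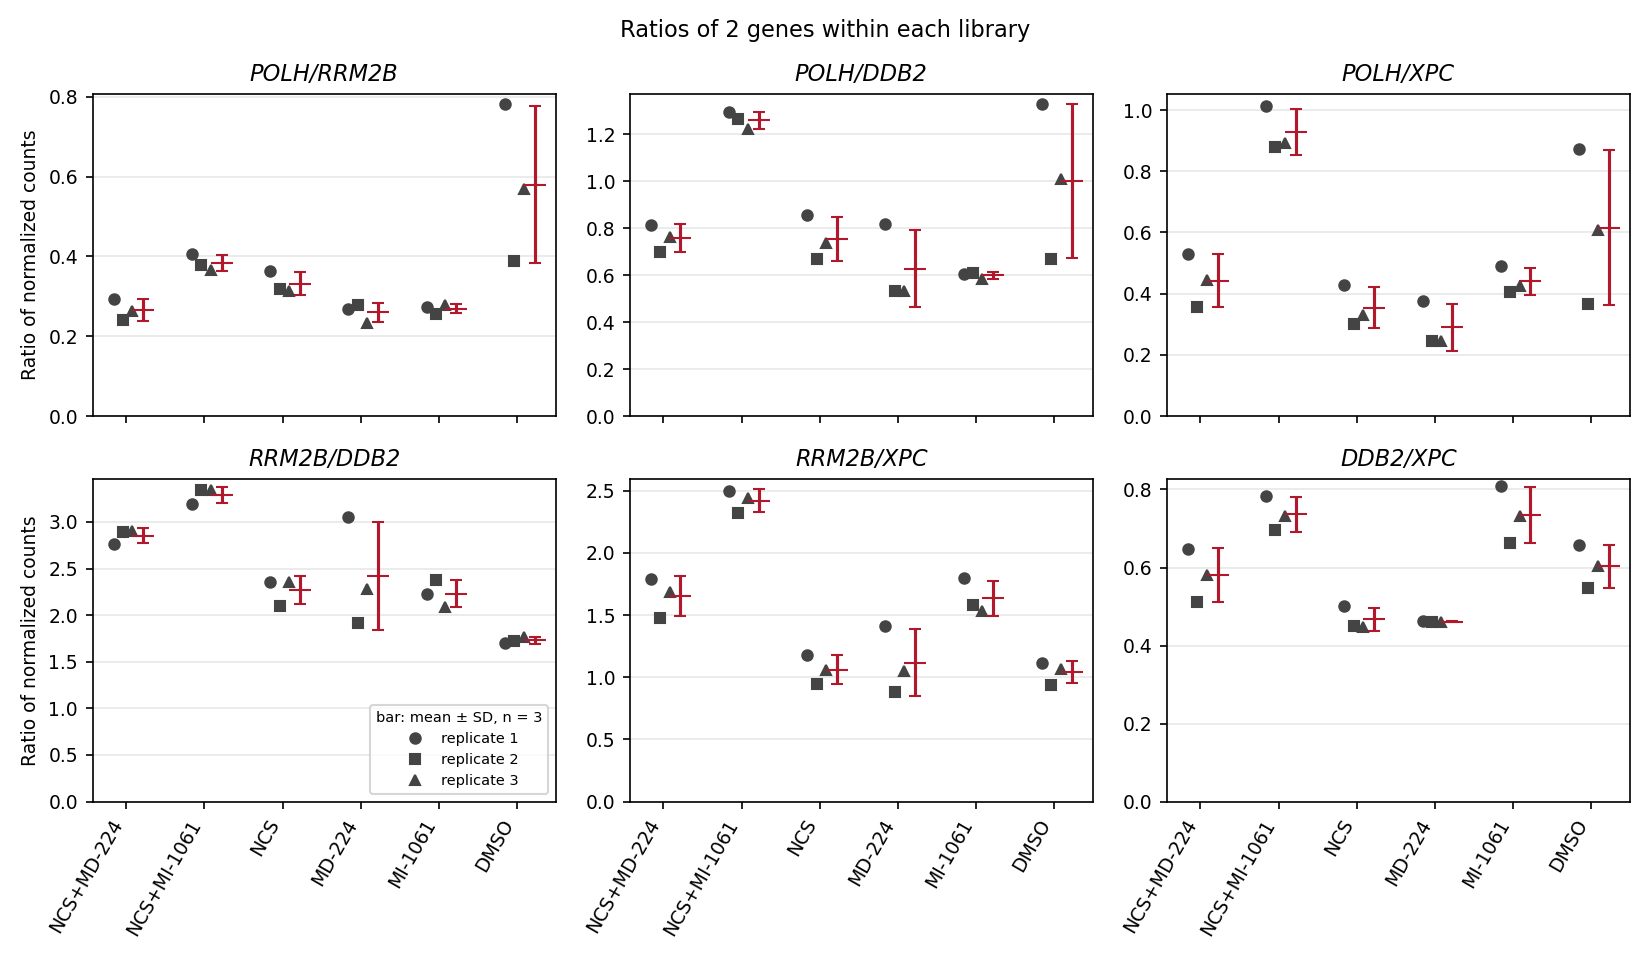
Ratios of normalized counts of 2 genes within each library (linear axes from 0), with replicates as symbols and mean ± SD as bars (n = 3). POLH/DDB2 lies at 1.22 to 1.29 in NCS+MI-1061 and at 0.582 to 0.61 in MI-1061 libraries, and DDB2/XPC lies at 0.461 to 0.462 in the 3 MD-224 libraries.

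Other repair and nucleotide genes were looked up in this table of genes raised by NCS with MI-1061. It held 3074 genes, where the RefSeq windows covered 27305 genes. How many genes of a list it held is therefore not read as a result. Of 33 genes on the nucleotide excision repair list the table held DDB1 and ERCC5 besides XPC and DDB2. DDB1, the larger subunit of the complex that holds DDB2, rose 1.48-fold with MI-1061 (adjusted p = 5.71e-05) and 1.53-fold with MI-1061 after NCS (limma adjusted p = 2.35e-05). ERCC5, the nuclease that cuts on the 3′ side of a lesion, was at 1.2-fold with MI-1061 (adjusted p = 0.109) and rose 1.41-fold with MI-1061 after NCS (limma adjusted p = 0.00547). With TMM scaling these directions turned: DDB1 was at log2 −0.43 with MI-1061 and −0.38 with MI-1061 after NCS, and ERCC5 at −0.73 and −0.50, all called lower. With MD-224 after NCS, where XPC and DDB2 rose, DDB1 and ERCC5 did not pass (1.12- and 1.2-fold; limma adjusted p = 0.291 and 0.228). Of the 20 genes for translesion synthesis the table held POLH alone, and of the 23 for base excision and mismatch repair it held 0. Genes of these lists outside the table were not analysed here.

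Of the 35 genes on the list for double-strand break repair and the Fanconi pathway 2 were in the table, of which XRCC4 is described here. XRCC4, the partner of DNA ligase IV in end joining, averaged 609.1 ± 246 in NCS+MD-224, 2170 ± 330 in NCS+MI-1061, 311.5 ± 38.1 in NCS, 261.3 ± 31 in MD-224, 381.6 ± 53.3 in MI-1061 and 563.9 ± 3.48 in DMSO libraries. It fell with NCS, MI-1061 and MD-224 alone (0.551-, 0.673- and 0.462-fold; limma adjusted p = 0.00379, 0.0272 and 0.000738). With MI-1061 after NCS it rose 6.93-fold (limma adjusted p = 7.26e-09). Like POLH, it had positive interactions with MI-1061 (log2 3.36; limma adjusted p = 9.5e-07) and with MD-224 (log2 2.01; limma adjusted p = 0.000859). Of tested genes 23.5% and 4.07% were called so. Unlike XRCC4, POLH rose with MI-1061 without NCS (3.5-fold).

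Of 35 nucleotide supply genes the table held NME1, IMPDH1 and PNP besides RRM2B. NME1, a nucleoside diphosphate kinase, IMPDH1, an enzyme of guanine nucleotide synthesis, and PNP, of purine salvage, rose with MI-1061 after NCS by 2.64-, 1.93- and 2.89-fold (limma adjusted p = 2.43e-09, 1.67e-05 and 1.65e-06). With TMM scaling IMPDH1 was at log2 −0.05 there and lost its call. Without NCS MI-1061 raised NME1 1.28-fold and lowered PNP to 0.528-fold (limma adjusted p = 0.00474 and 0.000332), and IMPDH1 did not pass (0.863-fold). With TMM scaling the log2 of NME1 was −0.64 there and that of IMPDH1 −1.21, both called lower. None of these 3 rose with MD-224 after NCS (log2 −0.06 to 0.42; limma adjusted p 0.156 to 0.827), a comparison in which RRM2B rose. Interactions with MI-1061 were positive for all 3 (log2 1.05 to 2.45), as called in 23.5% of tested genes, while that of RRM2B was 0.01. With MD-224 that of PNP was positive too (log2 1.52; limma adjusted p = 0.00272), where 4.07% were called. PNP fell to 0.467-fold with MD-224 without NCS (limma adjusted p = 0.000247). The MD-224 interactions of NME1 and IMPDH1 did not pass (log2 0.26 and −0.07), and that of NME1 passed with TMM scaling (0.43; limma adjusted p = 0.0435).

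**Figure D4:**
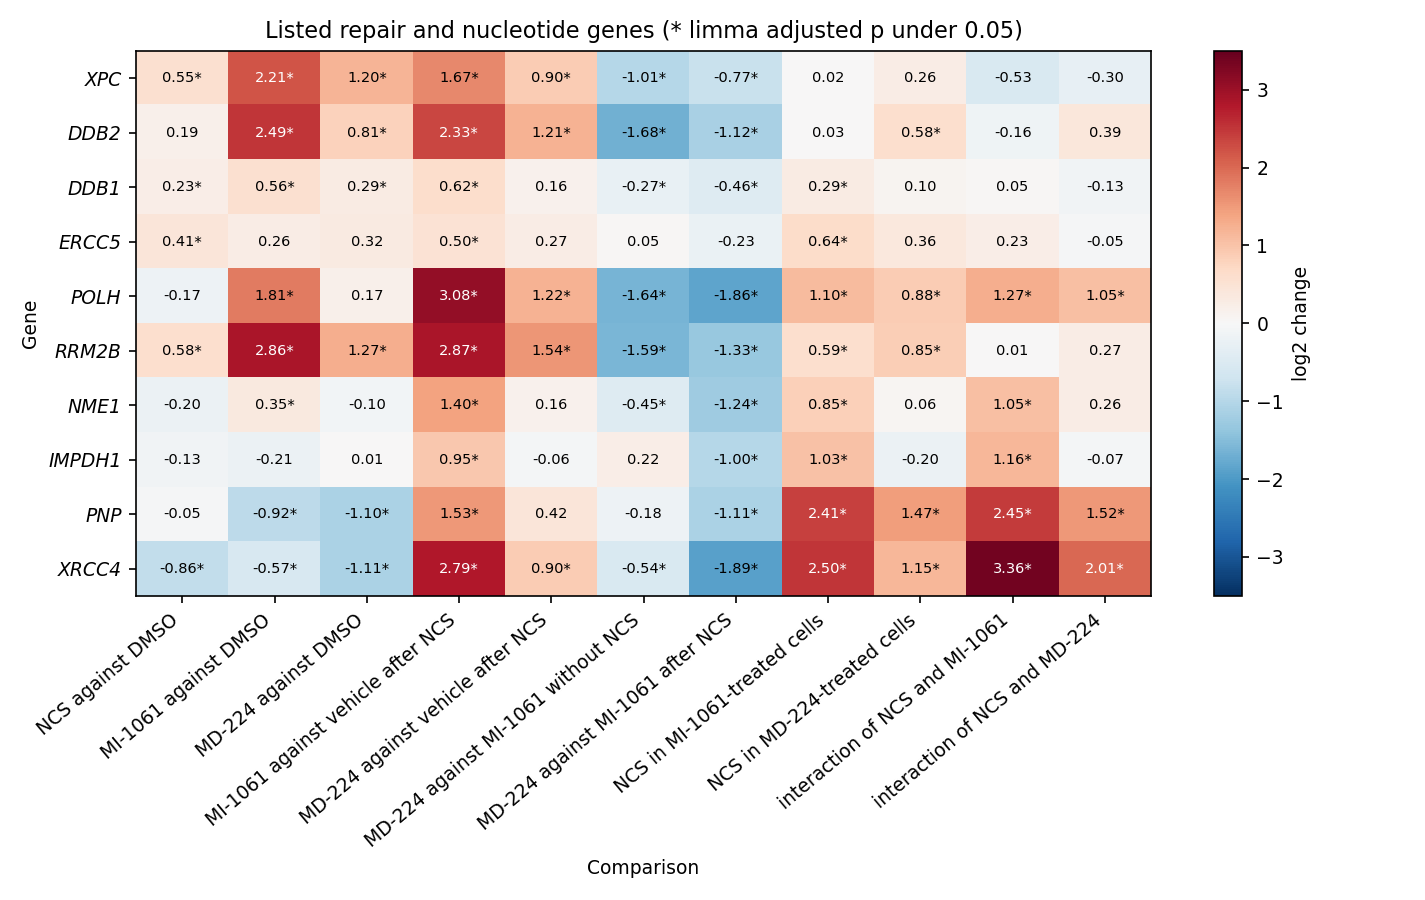
Log2 change (colour and number) of 10 listed repair and nucleotide genes in the table, for each comparison; asterisks mark a limma adjusted p under 0.05. XPC, DDB2 and RRM2B are positive for both compounds with and without NCS, while XRCC4 is at −0.57 with MI-1061 and 2.79 with MI-1061 after NCS.

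The list of other p53 targets in the damage response gave the setting for the 4 genes. Of its 25 genes 24 were in the table. With MI-1061 without NCS 24 of the 24 rose (67.6% of tested genes), with a median log2 of 2.55 against 1.00 over all tested genes. After NCS 24 rose (70.5% of tested genes), with a median of 2.49 against 0.97. With MI-1061 after NCS, MDM2 itself, CDKN1A, the p21 cell-cycle inhibitor, and the death receptor gene FAS rose 13.49-, 11.04- and 8.2-fold (limma adjusted p = 3.83e-11 for each). These 3 were named for having the smallest adjusted p there, and over the 24 genes the fold ran from 1.58 to 29.31. With TMM scaling 24 rose without NCS, where 942 of 3073 tested genes did. After NCS 21 rose and 1 fell, against 733 and 593 of tested genes. With MD-224, 21 rose without NCS, where 39.9% of tested genes did, and 24 after NCS, where 15.1% did. With TMM scaling these were 18 and 17, where 327 and 116 of 3073 tested genes rose. The median log2 of the 24 under the deposited scaling was 1.35 and 1.10, against 0.48 and 0.30 over all tested genes. With NCS alone 20 rose and 0 fell, where 54.0% of tested genes rose, with a median of 0.72 against 0.66 over all tested genes. With TMM scaling 5 rose and 4 fell, where 456 of 3073 tested genes rose and 467 fell. Interactions with MI-1061 were called positive in 1 and negative in 6 of the 24 (23.5% and 20.8% of tested genes), and with MD-224 positive in 0 and negative in 6 (4.07% and 7.19%). The positive one was TP53I3, a quinone oxidoreductase-like gene (log2 2.03, limma adjusted p = 0.000404), named after its value was seen. CDKN1A had a negative interaction of −1.45 with MI-1061 (limma adjusted p = 6.98e-05).

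The genes most like each of the 4 were found by the root mean square difference of group means on the log2 scale over the 6 groups, each gene centred on its own mean, among 2606 genes with a mean of at least 50. TNFRSF10B, a death receptor, was closest to XPC at 0.08, followed by PLXNB2 and TOB1 at 0.08 and 0.11. SESN2, a stress-induced regulator of growth signalling, was closest to DDB2 at 0.09, followed by PVT1 and AEN at 0.12 and 0.15. FAS was closest to RRM2B at 0.15, then FAM212B at 0.16 and PLK3 at 0.17. POLH was closest to ADCK3, a gene of coenzyme Q synthesis, at 0.15, then to HSPA4L at 0.19 and DUSP14 at 0.20. ADCK3 averaged 1331 ± 368 in NCS+MD-224, 5313 ± 1143 in NCS+MI-1061, 768.9 ± 255 in NCS, 892.6 ± 269 in MD-224, 3024 ± 907 in MI-1061 and 720.2 ± 173 in DMSO libraries. Among the 4 genes DDB2 and XPC were the most alike (0.27), then RRM2B and DDB2 (0.29), and XPC and POLH the least (0.54). Many other genes were nearer: DDB2 ranked 47 in closeness to XPC and XPC ranked 28 for DDB2, while POLH ranked 850 for XPC. Replicate error is not part of this measure, and genes close to each other in it were not tested for a difference.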

How the data were processed

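Poly(A)-enriched RNA of 18 SJSA-1 libraries was sequenced, per the labels' protocols. The deposited table holds normalized counts, a signal that the authors made by dividing read counts by 1 size factor per library. In 13 libraries 100% of values below 2000 were whole multiples of 1 read (tolerance 0.01), which gave size factors of 0.651 to 1.55 and 4490870 to 10535849 reads over listed genes. Per the submitters' processing notes the tools were HISAT2 2.0.5.2, featureCounts 1.6.3 and DESeq2 2.11.40.6 with build GRCh38, with no role stated for each. How the listed genes were chosen is not given in the sources used here, and the table's own values show a minimum ratio of NCS+MI-1061 to DMSO.

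Values were used as log2(value + 1), where 3 or more libraries reached 10 (3073 genes tested, 1 not), in limma 3.58.1 (R 4.3.3). All 6 groups shared 1 fit and 1 variance trend. Fold changes come from log2(value + 1), which understates changes of low genes. Adjusted p values are Benjamini-Hochberg over all tested genes, calls are under 0.05 and tests are two-sided. There were 9 pairwise comparisons and 2 interactions. EdgeR 4.0.16 (quasi-likelihood) and DESeq2 1.42.0 used the recovered reads of the 9 libraries without NCS (3 comparisons) and the authors' size factors. The scripts were tested on simulated data. Sequences are from RefSeq (GRCh38.p14). Figures used matplotlib 3.10.9 and Python 3.11.15.

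The members and lists were chosen with earlier results of these data known. Named genes were the 4 members, up to 6 listed genes of each pathway list or the 3 with the smallest adjusted p, and the 3 genes most like each member. Symbols were matched through RefSeq names and synonyms (2795 and 213 of 3074, 66 unmatched). Replicate numbers deviated together (each correlation across genes over 0.1) in 7 of 9 pairwise comparisons, the lowest being 0.102, but not in NCS against DMSO (lowest 0.0627), in NCS with MI-1061 present (0.0197) or in the interactions, and the fit left them out. Between 11 pairs of replicates the chi-square per gene of recovered reads was 37.6 to 133, so none of these pairs agreed within sampling noise. Of the pathway lists, 1 gene in the table is not reported here.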

Additional observations from a re-analysis of the deposited data

Results flagged for a closer look

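The POLH interaction with MI-1061 was flagged because the change with the inhibitor differed between cells with and without NCS by a test of the difference itself (log2 1.27, SE 0.30; limma adjusted p = 0.00281). The POLH interaction with MD-224 was flagged for the same reason (log2 1.06, SE 0.30; limma adjusted p = 0.0349). Beside both stands the spread of POLH in the DMSO libraries, at 2132, 1093 and 1754, whose part in the result was not tested. Without DMSO replicate 1 the interactions with MI-1061 and MD-224 were 1.06 and 0.85, and without DMSO replicate 2 they were 1.55 and 1.33. Groups of 3 libraries were too small for the check on single outlying libraries.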

How the results depend on the processing

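Of 56 results, none changed call with a pseudocount of 0.5 or 5, none of the 44 limma results did without a filter or with a mean of at least 50, and none of 12 did with edgeR or DESeq2 on recovered reads. TMM scaling over the listed genes kept 30 of 44. For NCS against DMSO it gave log2 −0.0605 for XPC, −0.43 for DDB2, −0.79 for POLH and −0.0377 for RRM2B. For MD-224 against DMSO it gave 0.32 for DDB2 and −0.33 for POLH, and for MD-224 against MI-1061 after NCS −0.11 for XPC. For NCS in MI-1061-treated cells it gave −0.60 for XPC, −0.59 for DDB2 and −0.0258 for RRM2B. For NCS in MD-224-treated cells it gave −0.19 for XPC, 0.13 for DDB2 and 0.43 for POLH. The DDB2 interaction with MD-224 was 0.56 and passed. TMM assumes that most listed genes did not change, and the table holds genes that were higher with NCS+MI-1061.

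With the replicate block the XPC interaction with MI-1061 was −0.53 and passed (limma adjusted p = 0.0199). Correlations between like-numbered replicates of that contrast were 0.0197 to 0.3994, so not all of them passed the limit of 0.1 used for pairing. The block changed no other call. With just the compared groups the POLH interaction with MD-224 was 1.0550 and did not pass (limma adjusted p = 0.0733).

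When a replicate was left out, from 1 group or from every group, the log2 ranges of the results that changed were as follows, and the cause was not tested. Against DMSO, NCS gave 0.47 to 0.62 for XPC (0.59 without replicate 3 of every group) and −0.45 to 0.0339 for POLH, and MD-224 gave −0.11 to 0.37 for POLH (−0.10 without replicate 2 of every group). MD-224 against MI-1061 after NCS gave −0.88 to −0.61 for XPC (−0.62 without replicate 3 of every group). NCS in MI-1061-treated cells gave −0.18 to 0.15 for XPC (−0.15 without replicate 1 of every group) and −0.12 to 0.10 for DDB2 (0.0902 without MI-1061 replicate 2 and −0.10 without replicate 1). NCS in MD-224-treated cells gave 0.37 to 0.74 for DDB2 and 0.69 to 1.03 for POLH (0.91 without replicate 3 of every group). Interactions with MI-1061 were −0.73 to −0.40 for XPC (−0.68 without replicate 1 of every group; it passed there and without MI-1061 replicate 1), 0.99 to 1.58 for POLH (1.24 without replicate 3 of every group) and −0.12 to 0.12 for RRM2B (−0.0575 and −0.0204 without replicates 1 and 3 of every group). The POLH interaction with MD-224 was 0.85 to 1.33 (0.88 and 0.97 without replicates 1 and 3 of every group; limma adjusted p 0.00394 to 0.349). Gene ratios with a replicate left out are values without a test, since their 36 arrangements cannot reach the threshold.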
